A study of Sus scrofa with 6 samples.

Results

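The 7 mRNAs of complex I that are encoded in mitochondrial DNA (mtDNA), ND1, ND2, ND3, ND4L, ND4, ND5 and ND6, were followed in IPEC-J2 cells given chenodeoxycholic acid (CDCA), a primary bile acid. They were taken by gene name from a table of 31908 Ensembl pig gene IDs, and each of the 7 had 1 gene ID with 1 listed transcript. The cells used, IPEC-J2, are a porcine gut epithelial line of jejunal origin. The control group (CON, n = 3) was given PBS, and the CDCA group (n = 3) was given 50 μM CDCA, both for 24 h in 6-well plates. Nothing in the labels ties the 3 replicates of a group to separate cultures, so the p-values measure only the spread between these libraries. The culture is of 1 cell line without an animal around it, and the bulk RNA cannot tell a smaller number of cells that carry a transcript from less of it per cell.

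Complex I, the NADH:ubiquinone oxidoreductase, takes electrons from NADH, hands them to ubiquinone and pumps protons across the inner mitochondrial membrane. All 7 mtDNA-encoded subunits sit in its membrane arm, and each belongs to the catalytic core, whose other subunits come from nuclear genes. In mammals mtDNA is transcribed from both strands into long precursors, and most mRNAs are freed by cutting out the tRNAs that lie between them. ND6 is the only one of the 13 mtDNA-encoded mRNAs that is read from the other strand. ND4L and ND4 overlap and are carried on 1 mRNA, and ND5 and ND6 overlap at their ends from opposite strands.

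Values are TPM, a measure of relative transcript abundance corrected for transcript length, in which every library is scaled to the same total. Levels of different genes are still only roughly comparable. ND4L and ND4, carried on 1 mRNA, had unlike means (2724 and 1278 TPM in CON). The listed TPM added up to between 351770 and 366073 per library, and no read counts per gene were used here, so no counting error is given for a value. The epithelial genes KRT8, KRT18, EPCAM and CLDN4 were present, with mean levels from 65.6 to 806 TPM, whereas CDH1 (0.397 TPM in CON and 0.533 TPM in CDCA) and CLDN7 lay under 1 TPM. The 6 listed epithelial markers together held 624 to 647 TPM in CON and 1180 to 1320 TPM in CDCA, a difference that lay mostly in CLDN4 (225 and 806 TPM). The 3 immune markers summed to 0.41 to 1.32 TPM in CON and 4.85 to 5.97 TPM in CDCA, CD68 going from 0.0867 to 4.84 TPM and CD3E from 0.66 to 0.447 TPM, with PTPRC at 0 and 0.00333 TPM. Summed endothelial markers held 1.8 to 2.31 TPM in CON and 1.23 to 1.49 TPM in CDCA, and summed fibroblast markers 1.26 to 1.77 and 0.89 to 1.08 TPM, with LUM at 0 in every library. The part of these markers in the results was not tested.

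All 7 complex I mRNAs fell in the CDCA group. In limma on log2(TPM + 1), with Benjamini-Hochberg adjustment over 8708 tested genes, 7 of 7 were called lower, that is, with an adjusted p (FDR) under 0.05 and a log2 fold change over 1 in size. Of all tested genes, 3.9% were called lower. The values of the groups did not overlap for 7 of 7, against 27.8% of all tested genes that lay lower in CDCA without overlap. The median log2 fold change of the 7 was -1.48, beside 0.05 for all tested genes. ND1, ND2, ND3, ND4L and ND4 were 2.45 to 2.96 times lower, and ND5 and ND6 were 4.79 and 5.03 times lower.

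ND1 (ENSSSCG00000018065), which builds part of the channel through which ubiquinone enters, held 1685, 1631 and 1604 TPM in CON replicates 1 to 3 and 604, 547 and 653 TPM in CDCA replicates 1 to 3. The lowest control library stood far above the highest CDCA library, which reached 40.7% of it. The group means were 1639.8 ± 41.2 and 601 ± 52.7 TPM (SD, n = 3 each), and the log2 fold change was -1.45 (SE 0.066, FDR = 1.2e-05, limma).

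ND2 (ENSSSCG00000018069), one of the antiporter-like subunits of the proton path, held 2103, 2004 and 1951 TPM in CON and 829, 758 and 886 TPM in CDCA. It was the member that fell least, and its groups still lay apart, with the highest CDCA library at 45.4% of the lowest control. The means were 2019 ± 76.8 and 824 ± 64.4 TPM (SD, n = 3 each), with a log2 fold change of -1.29 (SE 0.063, FDR = 1.7e-05, limma).

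ND3 (ENSSSCG00000018084), whose flexible loop lies close to the ubiquinone site, held 2286, 2161 and 2114 TPM in CON and 722, 679 and 819 TPM in CDCA. All control libraries were high and all CDCA libraries low. The means were 2187 ± 89.2 and 740.1 ± 71.3 TPM (SD, n = 3 each), and the log2 fold change was -1.57 (SE 0.073, FDR = 1.3e-05, limma).

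ND4L (ENSSSCG00000018086), a small membrane subunit, held 3077, 2669 and 2427 TPM in CON and 953, 918 and 1043 TPM in CDCA. It had the highest mean TPM of the 7 in both groups and was the most scattered in CON, where the highest library was 1.27 times the lowest. The means were 2724 ± 329 and 971 ± 64.4 TPM (SD, n = 3 each), and the log2 fold change was -1.48 (SE 0.093, FDR = 4.1e-05, limma).

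ND4 (ENSSSCG00000018087), a second antiporter-like subunit, held 1341, 1251 and 1242 TPM in CON and 473, 432 and 526 TPM in CDCA. Its mean TPM was the lowest of the 7 in both groups, and its groups did not overlap. The means were 1278 ± 55.0 and 477 ± 47.1 TPM (SD, n = 3 each), and the log2 fold change was -1.42 (SE 0.075, FDR = 2.1e-05, limma). Reads from the stretch that ND4L and ND4 share can be split between them, so the single values of this pair are uncertain.

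ND5 (ENSSSCG00000018091), the antiporter-like subunit at the far end of the membrane arm, held 2526, 2258 and 2249 TPM in CON and 492, 426 and 549 TPM in CDCA. The gap was wider than for the members described so far, the highest CDCA library holding 24.4% of the lowest control. The means were 2344 ± 157 and 489 ± 61.2 TPM (SD, n = 3 each), and the log2 fold change was -2.26 (SE 0.096, FDR = 9.9e-06, limma).

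ND6 (ENSSSCG00000018092), a membrane subunit beside ND4L and ND1 and the member from the other strand, held 2891, 2453 and 2547 TPM in CON and 510.02, 461 and 598 TPM in CDCA. Its mean fall was the largest of the 7, ahead of ND5 by less than the spread between libraries, and 18 tested genes had a more negative log2 fold change. The means were 2631 ± 231 and 523 ± 69.0 TPM (SD, n = 3 each), and the log2 fold change was -2.33 (SE 0.105, FDR = 1.2e-05, limma). The labels name an Illumina TruSeq RNA kit and no strand setting. Without strand, reads from ND6 and from RNA of the opposite strand cannot be told apart, and from which strand the ND6 values came was not tested.

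**Figure D1:**
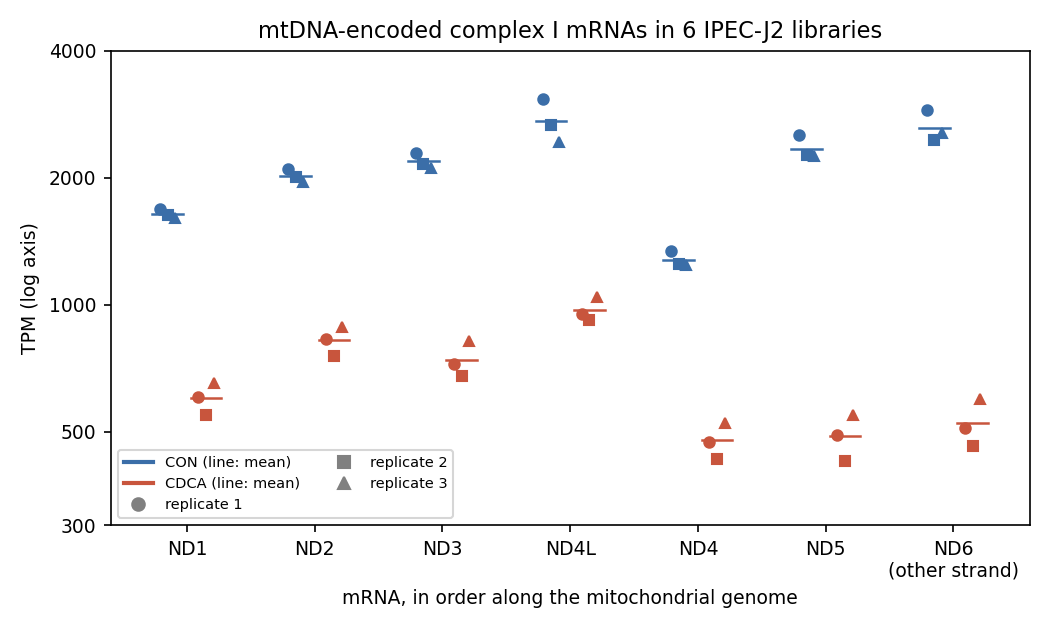
TPM (log axis) of the 7 mtDNA-encoded complex I mRNAs in each library, in order along the mitochondrial genome, with CON in blue, CDCA in red, 1 symbol per replicate and a line at each group mean. For each of the 7, all 3 control libraries lie above all 3 CDCA libraries, and the gap is widest for ND5 and ND6.

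The 7 mRNAs also moved together within a group. CON replicate 1 was the highest control library for 7 of 7, and CDCA replicate 3 was the highest and CDCA replicate 2 the lowest CDCA library for 7 of 7. The same held for the other mtDNA-encoded mRNAs, except that ATP8 was highest in CDCA replicate 1, so this is not particular to complex I. The share of all tested genes with this order was not computed. The lowest control library was CON replicate 3 for 6 members and CON replicate 2 for 1, ND6. Summed over the 7, the level was 15909, 14427 and 14134 TPM in CON and 4583, 4222 and 5072 TPM in CDCA. Their share of the listed TPM was 4.35, 3.97 and 3.95% in CON and 1.30, 1.16 and 1.43% in CDCA. The means of this share were 4.09 ± 0.223% and 1.30 ± 0.132% (SD, n = 3 each), and the groups did not overlap (exact two-sided permutation p = 0.1, the smallest that 3 libraries against 3 can give). The difference was -2.79 percentage points of the listed TPM, and -1.02 points when taken as percent of 1000000 TPM, since the listed values hold only part of that total.

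The order of the levels changed between the groups. In CON it ran ND4L, ND6, ND5, ND3, ND2, ND1, ND4, from high to low. The ranges of neighbours overlapped for ND4L and ND6, for ND6 and ND5, and for ND5 and ND3. The ranges did not overlap in the lower steps of that order, though the lowest ND3 value (2114 TPM) lay only just above the highest ND2 value (2103 TPM), while ND2, ND1 and ND4 stood further apart. In CDCA it ran ND4L, ND2, ND3, ND1, ND6, ND5, ND4. There the ranges overlapped for ND2 and ND3, for ND1 and ND6, for ND6 and ND5, and for ND5 and ND4, while ND4L stood clear of ND2 and ND3 clear of ND1. ND6 thus went from rank 2 to rank 5 and ND5 from rank 3 to rank 6, whereas ND2 went from rank 5 to rank 2.

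The same shift was seen in the make-up of the pool, from which the variation that all 7 share cancels within a library. The share of ND5 in the summed TPM of the 7 went from 15.8 ± 0.142% to 10.6 ± 0.395% (SD, n = 3 each), and that of ND6 from 17.7 ± 0.631% to 11.3 ± 0.444%. The share of ND2 went from 13.6 ± 0.366% to 17.8 ± 0.321%, the widest gain of the other 5. ND4L went from 18.3 ± 1.09% to 21.0 ± 0.624%, ND4 from 8.63 ± 0.181% to 10.3 ± 0.0721% and ND3 from 14.8 ± 0.347% to 16.0 ± 0.206%. ND1 held 10.6, 11.3 and 11.3% in CON (11.1 ± 0.425%, SD, n = 3) and 13.2, 12.97 and 12.9% in CDCA (SD 0.153). Because these shares add up to the whole, a gain here is a smaller fall and not a rise in level.

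**Figure D2:**
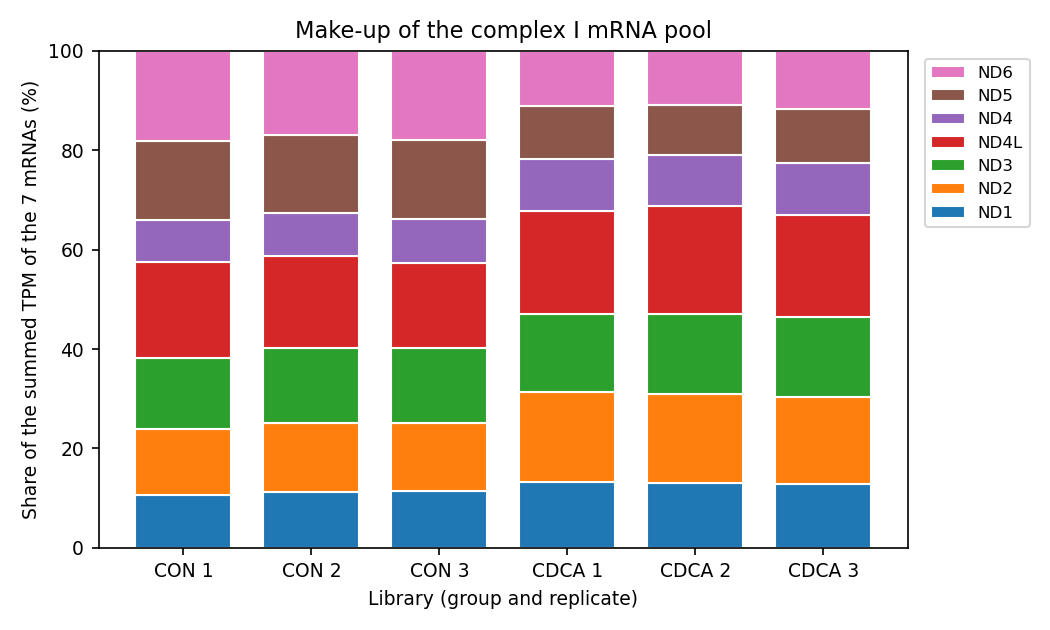
Share of each of the 7 mRNAs in their summed TPM (%, stacked bars) in each library of the CON and CDCA groups. The ND5 and ND6 segments are narrower in the 3 CDCA libraries (means of 10.6 and 11.3%) than in the 3 CON libraries (15.8 and 17.7%), and the make-up differs little within a group.

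To ask whether a member fell more or less than the average of the 7, the mean log2(TPM + 1) of the 7 was subtracted in each library before the limma fit. ND5 fell further than this average by 0.58 on the log2 scale (SE 0.074, FDR = 5.1e-05, limma) and ND6 by 0.65 (SE 0.078, FDR = 3.2e-05, limma). On the same scale ND2 lay above the average change by 0.39 (FDR = 0.00067, limma), ND4 by 0.26 (FDR = 0.0061, limma), ND1 by 0.24 (FDR = 0.012, limma) and ND4L by 0.21 (FDR = 0.040, limma). ND3 lay 0.12 above and did not pass (FDR = 0.13, limma). Its log2 distance from the average was 0.06, 0.11 and 0.10 in CON and 0.19, 0.23 and 0.22 in CDCA, without overlap. The average contains the member itself and ND5 and ND6, which pull it down. Measured against this average, 97.2% of all tested genes passed above it and 0.333% below it. With so many genes passing, the adjustment hardly changed a p-value (for ND4L from 0.039 to 0.040, limma). The FDRs of this fit therefore give little protection against multiple testing. The value for ND1 did not pass without CON replicate 1 (FDR = 0.064, limma) or without CDCA replicate 1 (FDR = 0.072, limma), and that for ND4L did not pass without CON replicate 2 (FDR = 0.11, limma), CON replicate 3 (FDR = 0.2, limma) or CDCA replicate 1 (FDR = 0.11, limma), nor with no filter on low values (FDR = 0.054, limma). ND4L also did not pass with the replicate number as a block in the fit (FDR = 0.056, limma).

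Pairs of members were also compared within each library, without a common average. They rest on the same values, and the grouping of ND5 with ND6 was made after their falls were seen. The pairs thus describe the division and do not test it again. The share of all gene pairs that part without overlap was not computed. Of the 21 possible pairs, 16 had log2 ratios that did not overlap between the groups. These included 10 of the 10 pairs that set ND5 or ND6 against one of the other 5, with changes of 0.7 to 1.04 in size on the log2 scale. Among the other 5 members, 6 of 10 pairs did not overlap, with changes from 0.024 to 0.272 in size over the 10. Each exact permutation test on a pair can reach no less than p = 0.1, so none of the 21 can pass at 0.05, before or after an adjustment.

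The mRNAs were next compared with their neighbours along the genome. ND1 and ND2 come first, parted by 3 tRNA genes, and the ratio of ND2 to ND1 was 1.23 in CON and 1.37 in CDCA, a log2 difference of 0.16 with no overlap (exact permutation p = 0.1). The next gene, COX1, lies 5 tRNA genes on and codes for the catalytic subunit of cytochrome c oxidase. COX1 stood at 4.51 times ND2 in CON and 1.55 times in CDCA, a log2 difference of -1.54 that was the largest of the 12 steps between neighbouring mRNAs. A step of the opposite sign came where the block of COX and ATP genes ends. ND3 stood at 0.357 times its neighbour COX3 in CON and 0.783 times in CDCA, a log2 difference of 1.13. Neither step overlapped between groups (exact permutation p = 0.1 for each). The 4 steps inside the block of COX and ATP genes parted without overlap as well, by log2 differences from -0.40 for COX3 over ATP6 to 0.43 for COX2 over COX1, so that block did not fall evenly.

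ND3, ND4L and ND4 follow each other, and of their 3 ratios only that of ND4 to ND3 parted between the groups. It had a mean log2 of -0.78 ± 0.012 in CON and -0.64 ± 0.022 in CDCA (SD, n = 3 each), a difference of 0.14 without overlap (exact permutation p = 0.1). ND4L was 1.24 times ND3 in CON and 1.31 times in CDCA, with overlapping ranges (log2 difference 0.08, exact permutation p = 0.3). For ND4 over ND4L, which share 1 mRNA, the log2 ratio was -1.20, -1.09 and -0.97 in CON and -1.01, -1.09 and -0.99 in CDCA. Its means were -1.09 ± 0.116 and -1.03 ± 0.053 (SD, n = 3 each), and the ranges overlapped (exact permutation p = 0.6).

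Between ND4 and ND5, again parted by 3 tRNA genes, the fall became larger. The log2 ratio of ND5 to ND4 was 0.91, 0.85 and 0.86 in CON and 0.06, -0.02 and 0.06 in CDCA. ND5 thus went from 1.83 times the level of ND4 to about the same level, at 1.02 times (log2 difference -0.84, no overlap, exact permutation p = 0.1). ND6 follows on the other strand and kept close to ND5, at 1.12 times ND5 in CON and 1.07 times in CDCA, with overlapping ranges (log2 difference -0.07, exact permutation p = 0.2). CYTB, the mtDNA-encoded subunit of complex III, comes after ND6 and stood at 0.576 times ND6 in CON and 0.55 times in CDCA, again with overlapping ranges (log2 difference -0.07, exact permutation p = 0.4). The steps from ND5 to ND6 and from ND6 to CYTB therefore lay within the spread, which at 3 libraries a group does not show that these mRNAs changed equally. As no strand setting is given, the ND6 values may hold reads from RNA of the opposite strand, where ND5 overlaps it.

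By strand, ND6 was set against the summed TPM of the other 6 members. The ND6 values may hold reads from RNA of the opposite strand, so this contrast cannot show how the strands behaved. The log2 ratio was -2.17, -2.29 and -2.19 in CON and -2.998, -3.03 and -2.90 in CDCA. ND6 went from 0.215 to 0.127 times this sum, and the groups did not overlap (log2 difference -0.76, exact permutation p = 0.1). ND5, from the same strand as those other members, parted from the other 5 as well, as its ratio to ND4 shows. By role, the antiporter-like subunits ND2, ND4 and ND5 fell 2.45, 2.68 and 4.79 times and did not move as a block.

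As a group the complex I mRNAs fell less than the other 6 mtDNA-encoded mRNAs. COX1, COX2 and COX3 of cytochrome c oxidase were 7.13, 5.31 and 6.49 times lower, ATP8 and ATP6 of ATP synthase 4.12 and 4.91 times lower, and CYTB 5.28 times lower. All 6 were called lower, and their median log2 fold change was -2.40. ND5 and ND6 lay within the range of these 6 and the remaining 5 members outside it. Measured against the average of the 7 complex I mRNAs, 6 of the 6 fell further, from -0.35 for ATP8 (FDR = 0.0042, limma) to -1.15 for COX1 (FDR = 8e-07, limma). Only 29 tested genes passed below that average, the 6 together with ND5, ND6 and 21 genes outside mtDNA.

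The complex I share of all mtDNA-encoded mRNA was 28.9, 28.3 and 28.6% in CON and 39.9, 40.1 and 41.3% in CDCA. Every CDCA library was above every control library. As a ratio to the other 6 mRNAs, the summed level of the 7 went from 0.4 to 0.679 times, a log2 difference of 0.76 (exact permutation p = 0.1). This ratio is formed within a library and does not depend on the scaling of the libraries.

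**Figure D3:**
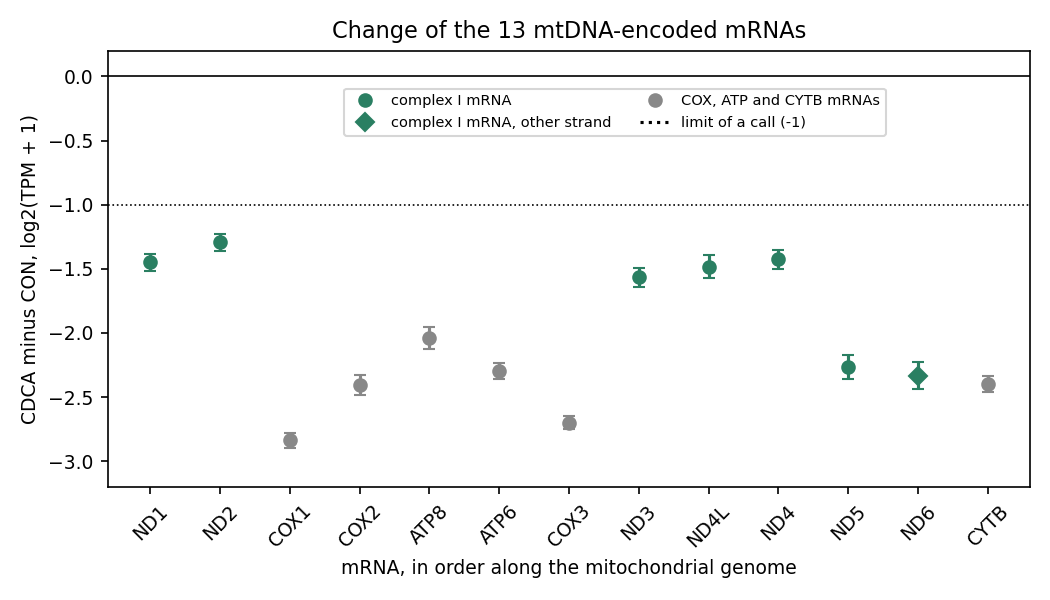
CDCA minus CON on the log2(TPM + 1) scale (points, with SE from limma as bars) for the 13 mtDNA-encoded mRNAs in order along the mitochondrial genome, complex I in green and the others in grey. ND1, ND2, ND3, ND4L and ND4 lie between -1.57 and -1.29, and ND5 and ND6 lie at -2.26 and -2.33 among the other 6 mRNAs, which span -2.84 to -2.04.

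The nuclear genes of the same complex changed far less. Of 37 nuclear-encoded subunits, 32 were found by symbol and 28 were tested. By FDR alone, 11 of the 28 were lower (39.3%, against 23.9% of all tested genes) and 2 were higher (7.14%, against 29.3%), and 15 did not pass. None of the 28 was called with a log2 fold change over 1 in size, against 7.42% of all tested genes called in either direction, and their log2 fold changes ran from -0.81 to 0.30 with a median of -0.22. NDUFA1, a small membrane-arm subunit, was the lowest of them. It held 12.1, 12.99 and 18.8 TPM in CON and 7.17, 8.08 and 8.03 TPM in CDCA, without overlap (log2 fold change -0.81, SE 0.157, FDR = 0.0049, limma). NDUFS6 of the NADH-binding arm fell from 70.8 ± 3.18 to 46.7 ± 2.55 TPM (log2 fold change -0.59, FDR = 0.0002, limma). NDUFS3, a core subunit of the arm that leads to ubiquinone, fell from 25.2 ± 0.909 to 16.6 ± 1.24 TPM (log2 fold change -0.57, FDR = 0.00047, limma). The accessory membrane-arm subunits NDUFB9 and NDUFB4 were the ones that rose, NDUFB9 from 245 ± 8.83 to 302 ± 7.73 TPM (log2 fold change 0.30, FDR = 0.001, limma) and NDUFB4 from 140.0 ± 6.03 to 173 ± 12.5 TPM (log2 fold change 0.30, FDR = 0.0063, limma). NDUFB4 no longer passed the FDR with totals computed without the 13 mtDNA-encoded mRNAs (FDR = 0.056, limma) and when each gene was read from its most abundant transcript alone (FDR = 0.19, limma).

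The summed level of the 28 tested nuclear subunits was 1851, 1857 and 1779.5 TPM in CON and 1732, 1761 and 1758 TPM in CDCA, and the ratio of the means was 0.957. The summed 7 mtDNA-encoded complex I mRNAs stood at 8.59, 7.77 and 7.94 times this sum in CON and 2.65, 2.4 and 2.88 times in CDCA (log2 difference -1.62, no overlap, exact permutation p = 0.1). Even so, the lowest value of any mtDNA-encoded member in any library, 426 TPM, stayed above the highest value of any tested nuclear subunit, 307 TPM.

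Among 19 assembly factors, which help to build complex I and are not part of it, 17 were tested, and 4 were lower, 4 higher and 9 did not pass by FDR. This is 23.5% each way, near the 23.9% of all tested genes that were lower and under the 29.3% that were higher, so the lower count does not stand out from the background. None was called, and the median log2 fold change was -0.20. ACAD9, of the complex that assembles the ND2 part of the membrane arm, fell from 3.17 ± 0.0874 to 2.03 ± 0.176 TPM (log2 fold change -0.46, FDR = 0.0049, limma). TMEM186 of the same complex fell by 0.30 on the log2 scale (FDR = 0.043, limma), and NDUFAF4 also by 0.30 (FDR = 0.030, limma). TIMMDC1, which takes part in assembly of the ND1 part, rose from 2.57 ± 0.188 to 4.11 ± 0.841 TPM (log2 fold change 0.50, FDR = 0.020, limma). DMAC2 rose by 0.49 (FDR = 0.005, limma) and NDUFAF3 by 0.30 (FDR = 0.010, limma). With totals computed without the 13 mtDNA-encoded mRNAs, 10 of the 17 were lower and 1 was higher, where 31.9% of all tested genes were lower and 20.1% higher. Of the 6 fits that each left out 1 library, TMEM186 did not pass the FDR in 5 (all but that without CDCA replicate 3), NDUFAF4 in 5 (all but that without CON replicate 3) and TIMMDC1 in 3 (without CON replicate 2, CDCA replicate 1 or CDCA replicate 2), with a largest FDR of 0.12, 0.093 and 0.064 in limma, and none of them passed with no filter on low values. TIMMDC1 also did not pass with totals without the 13 mRNAs (FDR = 0.054, limma). With the replicate number as a block in the fit, TMEM186 (FDR = 0.073, limma) and NDUFAF4 (FDR = 0.072, limma) did not pass. TMEM186 was also lost when each gene was read from its most abundant transcript alone (FDR = 0.055, limma). DMAC2 (FDR = 0.13, limma, most abundant transcript alone) and NDUFAF3 (FDR = 0.1, limma, totals without the 13 mRNAs) each failed to pass in 1 alternative.

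Of 22 genes whose products transcribe mtDNA or process and stabilise its RNA, 14 were tested. By FDR 4 were lower (28.6%), 1 was higher (7.14%) and 9 did not pass, with a median log2 fold change of -0.10. Among all tested genes these shares were 23.9% lower and 29.3% higher, so the lower count is near the background, and 1 gene called of 14 compares with 7.42% called among all tested genes. ELAC2, the enzyme that cuts mitochondrial and nuclear precursors at the 3′ end of tRNAs, was the only one called. It held 11.1, 8.94 and 12.7 TPM in CON and 3.84, 2.02 and 3.06 TPM in CDCA. The groups stood well apart (log2 fold change -1.60, SE 0.196, FDR = 0.00067, limma). The other end of the tRNAs is cut by mitochondrial RNase P, of which TRMT10C and PRORP are parts. TRMT10C fell from 4.47 ± 0.398 to 2.67 ± 0.125 TPM (log2 fold change -0.57, FDR = 0.0019, limma), whereas PRORP rose from 125 ± 6.90 to 176 ± 5.28 TPM (log2 fold change 0.49, FDR = 0.0003, limma). LRPPRC, which stabilises mitochondrial mRNAs, fell from 52.7 ± 2.83 to 40.2 ± 1.71 TPM (log2 fold change -0.38, FDR = 0.0014, limma). TFAM, which packages mtDNA and starts its transcription, held 20.5, 18.95 and 16.6 TPM in CON and 14.5, 14.7 and 15.7 TPM in CDCA (log2 fold change -0.30, FDR = 0.023, limma) and is named here as the fourth lower gene after its value was seen. TFAM did not pass without CON replicate 1, CON replicate 2, CDCA replicate 1 or CDCA replicate 2 (largest FDR 0.069, limma), nor with no filter on low values (FDR = 0.053, limma). With the replicate number as a block in the fit it did not pass either (FDR = 0.055, limma).

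**Figure D4:**
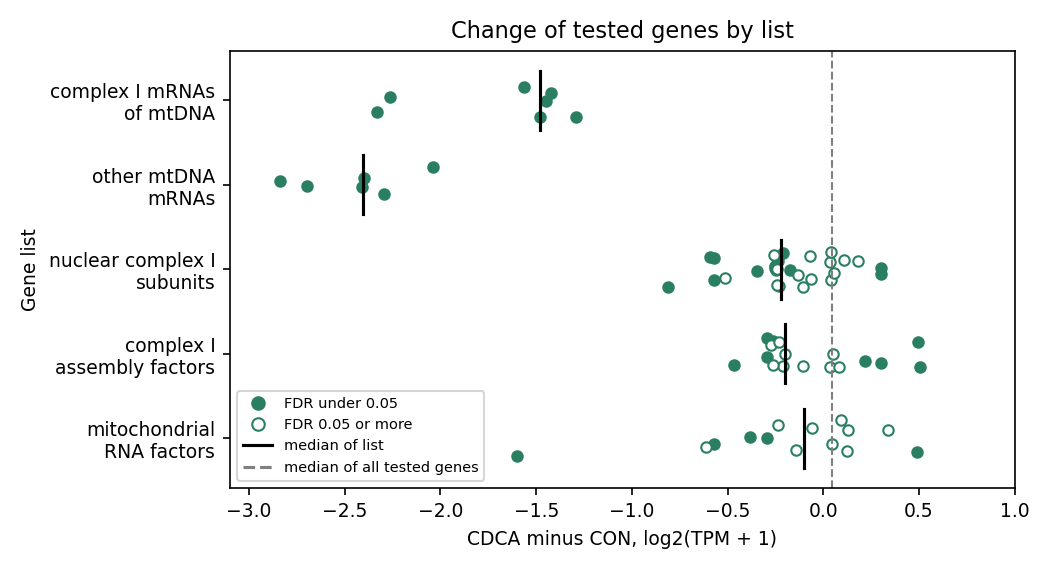
CDCA minus CON on the log2(TPM + 1) scale for every tested gene of 5 lists (points, filled where the FDR was under 0.05 in limma), with the median of each list as a black line and that of all tested genes as a dashed line. The complex I mRNAs of mtDNA (median -1.48) and the other mtDNA mRNAs (median -2.40) lie left of the nuclear complex I subunits (median -0.22), the assembly factors (-0.20) and the mitochondrial RNA factors (-0.10), where ELAC2 at -1.60 is the exception.

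Outside mtDNA, the genes whose profile over the 6 libraries was nearest to the mean of the 7 were BUB1B, EXO1, CYSRT1, STMN1 and CDK1. Likeness was the root mean square difference of log2(TPM + 1) after each profile's mean was subtracted, and it ran from 0.0726 for BUB1B to 0.0937 for CDK1. For the members themselves it ran from 0.064 for ND3 to 0.326 for ND6. These genes were far less abundant, BUB1B falling from 26.9 ± 1.93 to 7.65 ± 0.742 TPM, CDK1 from 61.6 ± 4.28 to 19.4 ± 0.881 TPM and STMN1 from 138 ± 6.72 to 47.4 ± 5.54 TPM (SD, n = 3 each). The measure was taken over 6 libraries that form 2 groups, so mainly the size of the group difference on the log2(TPM + 1) scale was matched. For the low genes EXO1 and CYSRT1 this rests on the pseudocount, since with 0.1 TPM their log2 fold changes went from -1.59 to -2.28 and from -1.78 to -2.27.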

How the data were processed

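Total RNA from 6 samples of IPEC-J2 cells (3 CON, 3 CDCA) was sequenced by the authors on an Illumina instrument, quantified with RSEM and deposited as TPM values for 63041 listed transcripts. The submitters' processing notes name Bowtie 0.12.2 and the mouse build mm10, whereas the gene IDs are of the pig. The annotation release, strand setting and treatment of reads that also match nuclear copies of mtDNA are not given in the sources used here. Gene order, overlaps and tRNA genes between mRNAs came from RefSeq genes of Sscrofa11.1, from which no coordinates were used.

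The rRNA and tRNA genes of mtDNA were not analysed here, so what is said of mtDNA covers its 13 mRNAs. Transcripts were summed per gene ID. Genes averaging 1 TPM or more over the 6 libraries were fitted with limma 3.58.1 (R 4.3.3; trend) on log2(TPM + 1), which understates the change of low genes, and p-values were adjusted over all tested genes. The study names edgeR for its own comparison, which needs read counts and was not run here. Single values and ratios were compared by exact two-sided permutation tests. The fit was checked on simulated data.

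The genes named from each nuclear list were the 3 largest rises and the 3 largest falls with an FDR under 0.05, and outside mtDNA the 5 nearest profiles with a symbol. The members and lists were chosen with earlier results of these data known. The pairs and neighbour steps were taken up after the values were seen, apart from ND2 over ND1, ND4 over ND4L and ND5 over ND4, which were planned. Single values of some list members are not reported here.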

Additional observations from a re-analysis of the deposited data

How the results depend on the processing

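All 7 complex I mRNAs stayed called lower in each of the 12 alternatives (0.1 TPM as pseudocount, no low-value filter, highest listed transcript, replicate block, totals without the 13 mtDNA-encoded mRNAs, median ratio scaling, and each library left out in turn), with a largest FDR of 0.00078 in limma. The log2 fold change ran from -1.45 to -1.23 for ND2 and from -2.49 to -2.25 for ND6. The number of members apart from the average of the 7 ran from 4 to 6. Totals without these 13 mRNAs moved the median log2 fold change of all tested genes from 0.05 to -0.08 and the called genes from 340 lower and 306 higher to 462 lower and 221 higher. A pseudocount of 0.1 TPM gave 505 lower and 509 higher. Taken as percent of 1000000 TPM instead, the complex I mRNAs differed by -1.02 percentage points between groups, against -2.79 for the share of listed TPM. Over the 12 alternatives, the assembly factors counted by FDR ran from 2 to 10 lower and from 1 to 4 higher (4 and 4 in the report), the nuclear subunits from 9 to 16 lower (11) and from 1 to 3 higher (2), and the RNA factors from 3 to 5 lower (4) and from 1 to 2 higher (1). The highest of these lower counts came with totals without the 13 mRNAs, where 31.9% of all tested genes were lower and 20.1% higher by FDR, against 23.9% and 29.3%. Without single libraries, the log2 difference of ND4 over ND4L ran from 0.00085 to 0.12. No pairing of the libraries by replicate number was seen, since same-numbered libraries had correlations of deviations of -0.0353, -0.0916 and -0.0509. Such weak correlations do not show that there was none. With the replicate number as a block, 7 members were called, 5 lay apart from the average of the 7 (ND4L at FDR = 0.056 in limma), and 343 genes were called lower and 309 higher. With 3 libraries a group, no exact test could pass at 0.05. Read counts per gene were not used here, so counting error could not be separated from the spread between libraries.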
